A study of Mus musculus with 14 samples.

Results

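The abundance of mature miRNAs in small RNA libraries was set beside the miRNA reads recovered with AGO2 in bone marrow derived macrophages from C57BL/6 mice. The 6 libraries used here, of 14 in the series, were 4 small RNA libraries and 2 AGO2 PAR-CLIP libraries. All cells came from femur and tibia marrow grown for 6 days in medium with 20% L929 cell culture medium (L929 is a fibroblast line that secretes the macrophage growth factor CSF1). All carried the floxed allele written ELAVL1f/f in the labels: small RNA WT 1 and WT 2 and the WT PAR-CLIP library carried it alone, and small RNA KO 3 and KO 4 and the KO PAR-CLIP library carried it with LysM-Cre, a recombinase expressed from the myeloid lysozyme gene. Genotypes were not compared, because each PAR-CLIP genotype is a single library. miRNA reads do not measure Elavl1, so the genotype labels were not checked here. Members were chosen by assay and annotation: every mature miRNA listed for small RNA (485 names in each library, from 318 miRNAs once arms and loci were added up) and every PAR-CLIP group of class miRNA (327 of 66451 groups in WT and 340 of 85458 in KO). A group is a cluster of overlapping reads. These groups held 2410171 of 6287870 grouped reads in WT (38.3%) and 2262229 of 6445262 in KO (35.1%), from 209 and 224 miRNAs. The small RNA libraries held 7869443, 6886110, 7207333 and 10265453 miRNA reads. Together the lists named 355 miRNAs, of which 202 were in both, 116 in small RNA only and 37 in AGO2 only.

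A miRNA is cut from a hairpin precursor whose stem yields a 5p and a 3p strand. Usually 1 strand is loaded into an Argonaute protein, of which AGO2 is the member that can cleave targets, and the strand's seed (bases 2 to 8) pairs with mRNAs. In PAR-CLIP cells take up 4-thiouridine, ultraviolet light crosslinks it to the bound protein, and the crosslinked base is read as C, so a T-to-C conversion marks contact. An AGO2 library holds the loaded miRNA beside target RNA, whereas a small RNA library holds all small RNA of the cell.

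The mature sequences that the comparison turned on are shown 5′ to 3′ as RefSeq lists them (table of build GRCm38.p6), with the seed in capitals. The first set led the AGO2 libraries, and miR-27b and miR-27a share a seed, as do miR-221 and miR-222.
miR-27b-3p: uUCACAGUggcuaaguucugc
miR-27a-3p: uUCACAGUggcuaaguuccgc
miR-142a-3p: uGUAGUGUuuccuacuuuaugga
miR-142a-5p: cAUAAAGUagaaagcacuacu
miR-223-3p: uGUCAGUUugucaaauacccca
miR-15a-5p: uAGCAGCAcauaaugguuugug
miR-22-3p: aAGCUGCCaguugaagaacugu
miR-221-3p: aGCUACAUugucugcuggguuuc
miR-222-3p: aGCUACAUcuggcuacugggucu
miR-101a-3p: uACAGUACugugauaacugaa

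The second set led the small RNA libraries, or shares its seed with a miRNA that did. The exceptions are miR-26a and miR-26b, which share a seed with each other. In small RNA miR-26a was 46th.
miR-21a-5p: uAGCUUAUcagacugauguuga
let-7c-5p: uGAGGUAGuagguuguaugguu
let-7a-5p: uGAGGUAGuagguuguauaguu
let-7b-5p: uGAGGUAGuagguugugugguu
let-7g-5p: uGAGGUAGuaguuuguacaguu
miR-24-3p: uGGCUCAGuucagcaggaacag
miR-146a-5p: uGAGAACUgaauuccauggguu
miR-146b-5p: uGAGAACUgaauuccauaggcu
miR-26a-5p: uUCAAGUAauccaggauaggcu
miR-26b-5p: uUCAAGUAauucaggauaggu
Counted from the 5′ end, miR-27b-3p and miR-27a-3p differ at U19C, let-7a-5p and let-7c-5p at A19G, and let-7c-5p and let-7b-5p at A17G. From miR-146a-5p to miR-146b-5p the changes are G18A and U21C, and from miR-26a-5p to miR-26b-5p they are C11U and C21U.

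The labelled cell type was checked with marker miRNAs. The list of miRNAs known from myeloid and blood cells (miR-142, miR-223, miR-146a, miR-155, miR-21a, miR-22) held on average 52.8% of small RNA reads and 22.6% of AGO2 reads. miR-21a alone made up 47.2% in small RNA and had no AGO2 group of class miRNA, so the 22.6% does not include it. With AGO2 groups of any class the list held 29.8% in WT and 31.4% in KO. On average miR-142 held 1.04% of small RNA and 10.9% of AGO2 reads, and miR-223 0.0522% and 4.76%. Lists for other cells held little: miR-126 of endothelium had 0.0332% and 0.0211%, the stromal list 0.0123% and 0.0361%, the erythroid list 0.00688% and 0.0287%, the muscle list 0.000161% and 0.00195%, and the neural list 0.00384% and 0.0261%. Among the defining stromal and lymphoid miRNAs, miR-199a and miR-150 had no AGO2 group of class miRNA. The liver miRNA miR-122 had 0.00981% and 0.0055%. The lymphoid list held 0.206% and 0.124%, nearly all of it miR-181a. No list covered epithelium, so epithelial miRNAs were not part of this check. Outside the lists, miR-203 held 0.0547% in WT and 0.137% in KO of AGO2 reads, groups of any class counted. miR-205 held 0.0521% and 0.104%.

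A different miRNA led each assay. miR-21a, an abundant miRNA of activated myeloid cells, took 46.8% and 45.8% of small RNA reads in WT 1 and WT 2 and 50.6% and 45.7% in KO 3 and KO 4. It had no AGO2 group of class miRNA. Its AGO2 reads lay in groups annotated otherwise, described at the end. miR-27b, a regulator of lipid metabolism genes whose hairpin lies in a cluster with miR-23b and miR-24-1, took 32.9% of AGO2 reads in WT and 30.6% in KO. Its small RNA shares were 1.21%, 1.23%, 1.20% and 1.23%, rank 12. The 2 assays did not overlap, and the mean AGO2 share was 26.1 times the mean small RNA share.

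Reads were concentrated in few miRNAs in both assays, though less in AGO2. The 10 miRNAs of highest share held 82.3%, 82.0%, 83.1% and 82.1% of small RNA reads, and 77.3% and 73.1% of AGO2 reads. To reach 90% of reads took 20, 20, 19 and 19 miRNAs in small RNA and 23 and 28 in AGO2. The leading sets were largely not the same miRNAs: the top 10 of the assays shared only miR-146a (10%), the top 20 shared miR-142, miR-146a, miR-27b and miR-30d (20%), and the top 50 shared 28 (56%). These are ranks over groups of class miRNA. With AGO2 groups of any class counted, the shared top 10 member was miR-21a, and miR-146a was 11th in AGO2.

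**Figure D1:**
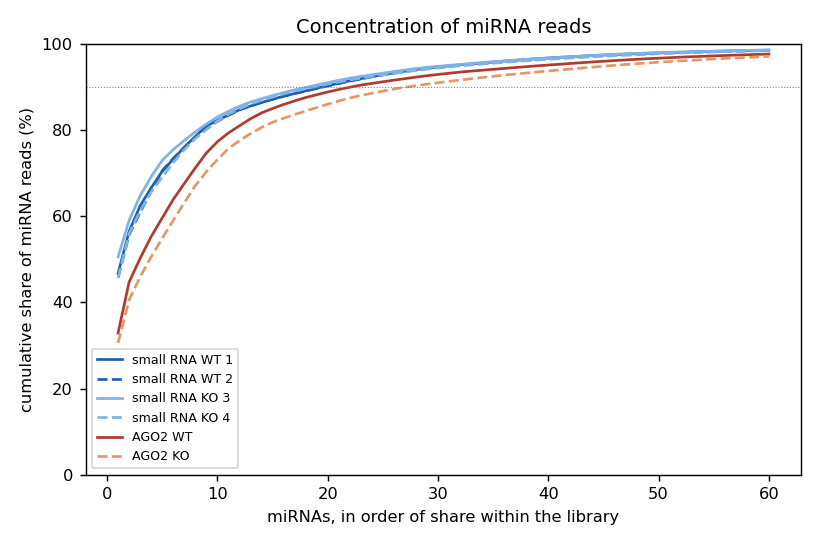
Cumulative share of miRNA reads (percent, vertical) against the number of miRNAs taken in order of share within each library (horizontal), 1 line per library, with the dotted line at 90%. The 4 small RNA lines start between 45.7% and 50.6% and run above both AGO2 lines, which start at 32.9% and 30.6%.

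Over the 202 miRNAs found in both assays, mean shares had a Spearman correlation of 0.714 (Pearson 0.704 on log10 shares). Single small RNA libraries against single AGO2 libraries gave 0.699 to 0.719. Within an assay the values were higher, 0.986 to 0.995 among small RNA libraries and 0.966 between the AGO2 libraries. These are descriptions across miRNAs, which share a library, its depth and its preparation. The order of abundance was thus kept in part, with departures that ran to more than 100-fold for single miRNAs.

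**Figure D2:**
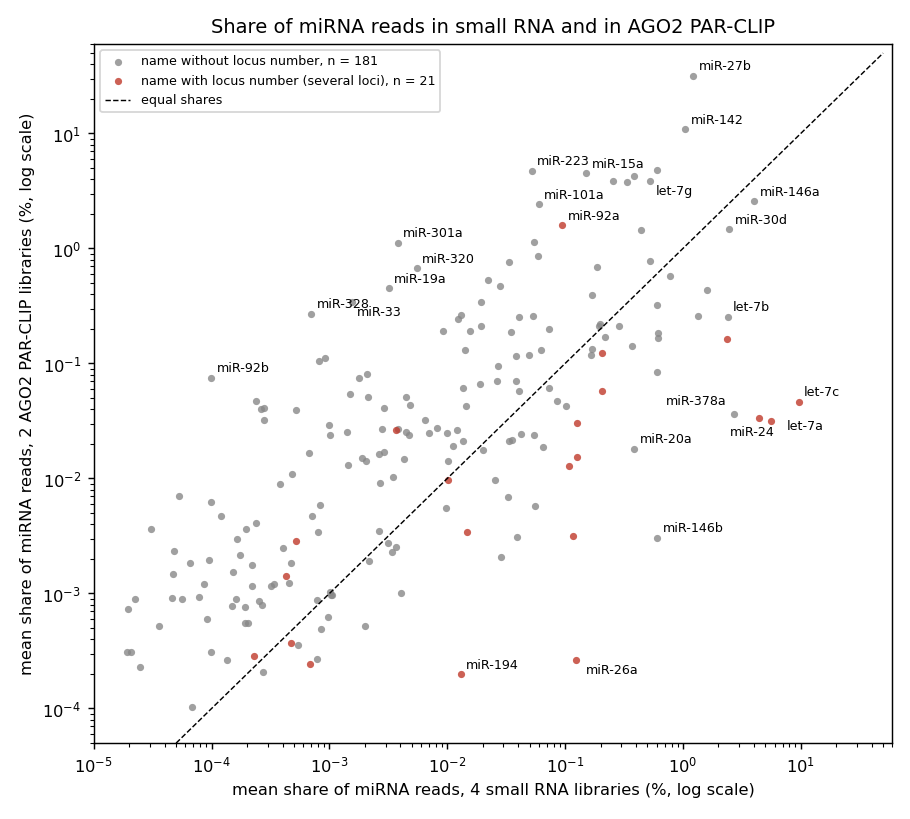
Mean share of miRNA reads in the 2 AGO2 PAR-CLIP libraries (vertical) against that in the 4 small RNA libraries (horizontal), both in percent on log axes, 1 point per miRNA found in both assays. The dashed line marks equal shares; miR-27b, miR-142 and miR-223 lie above it, and all 11 miRNAs whose name carries a locus number (red) with a small RNA share above 0.1% lie below it.

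The 2 AGO2 libraries were tested against the 4 small RNA libraries with edgeR's quasi-likelihood test on the read counts, Benjamini-Hochberg adjusted over all miRNAs that passed the filter on low counts (all but 7 of the 202). Of these, 151 (77.4%) had an adjusted p under 0.05, 79 higher in AGO2 (40.5%) and 72 lower (36.9%), and 153 had an unadjusted p under 0.05. In 158 (81%) the shares of the 2 assays did not overlap. The log2 ratios below are scaled by TMM, which centres the typical miRNA near 0 (median over all tested, 0.13). On that scale equal shares of reads correspond to -1.70. With plain shares the split was 115 higher and 40 lower, 74.2% of calls higher instead of 52.3%, with a median log2 ratio of 1.84. A direction given below held under both scalings unless stated. The ratio compares library preparations as well as RNA pools, and these cannot be told apart. Nothing in the labels says that libraries of 1 group came from separate cultures, so the p-values reflect only how far these libraries spread, genotype included.

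After miR-27b (log2 ratio 3.02, SE 0.19, edgeR adjusted p = 4.72e-08), the AGO2 libraries were led by miR-142, miR-27a and miR-223. miR-142, a miRNA restricted to blood cells, had AGO2 shares of 11.8% in WT and 9.95% in KO. Its small RNA shares were 0.774%, 1.0%, 1.27% and 1.13%. All AGO2 values lay above all small RNA values, and the log2 ratio was 1.70 (SE 0.24, edgeR adjusted p = 4.82e-05). miR-223, which restrains granulocyte production, stood at 5.53% and 3.99% in AGO2 against 0.0445%, 0.0561%, 0.0572% and 0.0508% in small RNA, ranks 4 and 63. This was the greatest excess among the 15 miRNAs that led AGO2, 91.2-fold in mean share, with a log2 ratio of 4.85 (SE 0.24, edgeR adjusted p = 1.47e-08). miR-101a, known to target the methyltransferase EZH2, had 2.04% and 2.81% against 0.0503%, 0.0429%, 0.0662% and 0.0789%, a log2 ratio of 3.63 (SE 0.25, edgeR adjusted p = 1.3e-07).

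miR-27a, the seed partner of miR-27b, had 5.06% and 4.65% of AGO2 reads against 0.624%, 0.633%, 0.547% and 0.584% of small RNA reads. It too was higher in AGO2 (log2 ratio 1.34, SE 0.19, edgeR adjusted p = 4.01e-05), but less so than miR-27b. A ratio of 2 miRNAs within a library does not depend on the scaling (the pairs given here and below were chosen after values were seen). miR-27b had 1.93, 1.95, 2.19 and 2.11 reads per miR-27a read in small RNA, and 6.50 and 6.57 in AGO2. The mature 3p strands of the pair differ only at U19C. Together the family took 36.6% of AGO2 reads on average and 1.81% of small RNA reads.

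The pair miR-221 and miR-222, transcribed together and known to target the cell cycle inhibitor p27, moved alike. miR-221 had 4.31% and 3.20% of AGO2 reads against 0.375%, 0.340%, 0.277% and 0.358% of small RNA reads. miR-222 had 3.70% and 4.10% against 0.249%, 0.296%, 0.218% and 0.263%. Their log2 ratios were 1.81 (SE 0.22) and 2.23 (SE 0.18). The number of miR-222 reads per miR-221 read ran from 0.664 to 0.868 in small RNA and was 0.858 and 1.28 in AGO2. Of the rest that led AGO2, miR-22 had 4.30% and 4.17% against 0.329% to 0.431% (log2 ratio 1.77), and miR-26b had 0.830% and 1.45% against 0.0508% to 0.0625% (log2 ratio 2.67). All 4 of these miRNAs had higher shares in each AGO2 library than in any small RNA library.

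**Figure D3:**
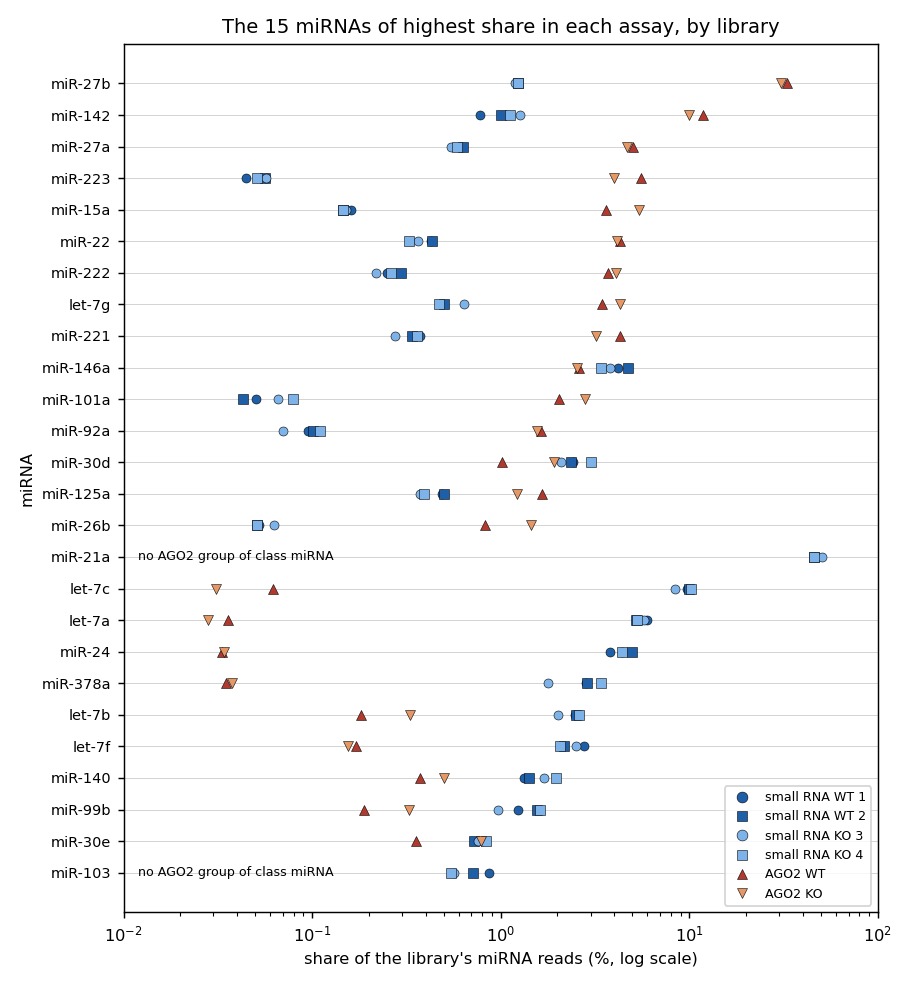
Share of the library's miRNA reads (percent, log axis) for the 15 miRNAs of highest mean share in each assay, 1 symbol per library (blue, small RNA; red and orange, AGO2). AGO2 symbols lie to the right for miR-27b to miR-221 and far to the left for let-7c, let-7a, miR-24 and miR-378a; miR-21a and miR-103 have no AGO2 group of class miRNA.

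Of the 15 miRNAs that led small RNA, miR-27b and miR-142 were higher in AGO2, miR-21a and miR-103 had no AGO2 group of class miRNA, and the other 11 were lower. miR-30e was among those, and with plain shares its log2 ratio was -0.45 (edgeR adjusted p = 0.172), while on the TMM scale it was -2.19, and -2.79 without the AGO2 KO library. let-7c, of a family known to repress RAS and HMGA2, held 9.72%, 9.94%, 8.45% and 10.2% of small RNA reads and 0.0622% and 0.0308% of AGO2 reads. The mean share was 206 times lower in AGO2 (log2 ratio -9.33, SE 0.49, edgeR adjusted p = 1.49e-08; -10.16 without the AGO2 WT library). let-7a fell from 5.94%, 5.19%, 5.74% and 5.30% to 0.0356% and 0.0282% (log2 ratio -9.11, SE 0.35, edgeR adjusted p = 4.59e-09). miR-24, which lies beside miR-27 in both of its clusters, had 3.82%, 4.97%, 4.40% and 4.39% against 0.0331% and 0.0340% (log2 ratio -8.72, SE 0.31, edgeR adjusted p = 3.45e-09). In all 3 every small RNA share was more than 100 times every AGO2 share.

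miR-378a, whose hairpin lies in the Ppargc1b gene, had 2.83%, 2.87%, 1.78% and 3.39% of small RNA reads and 0.0348% and 0.0378% of AGO2 reads (log2 ratio -7.91, SE 0.37). miR-146a, a feedback regulator of NF-κB signalling, was the miRNA that both top 10 lists held, with class miRNA alone counted. It had 4.17%, 4.71%, 3.80% and 3.42% of small RNA reads and 2.62% and 2.55% of AGO2 reads. The libraries did not overlap, but the mean share differed only 1.56-fold (log2 ratio -2.32, SE 0.23, edgeR adjusted p = 2.33e-06). miR-125a had 0.486%, 0.502%, 0.376% and 0.392% of small RNA reads and 1.66% and 1.22% of AGO2 reads. This was close to the typical miRNA at a log2 ratio of 0.05 (SE 0.24, edgeR adjusted p = 0.859), and with plain shares its log2 ratio was 1.71 (edgeR adjusted p = 1.92e-05).

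By the size of the ratio, among miRNAs with at least 0.01% of reads in either assay, the 10 most raised in AGO2 were miR-92b, miR-328, miR-301a, miR-33, miR-5109, miR-5105, miR-296, miR-19a, miR-32 and miR-320. miR-92b had 2, 9, 6 and 16 small RNA reads and 1590 and 1918 AGO2 reads. Its log2 ratio was 7.82 (SE 0.42, edgeR adjusted p = 1.58e-08), resting on very few small RNA reads, and 8.46 without small RNA KO 4. miR-301a had 447, 215, 291 and 235 small RNA reads and 32910 and 19808 AGO2 reads, ranks 126 and 16 (log2 ratio 6.55, SE 0.38). Even the lowest AGO2 count of miR-301a was over 40 times its highest small RNA count.

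The 2 miRNAs that were in the top 50 of AGO2 and outside the top 150 of small RNA were miR-33 and miR-328. miR-33, encoded in the Srebf2 gene and known to repress the cholesterol exporter ABCA1, had 89, 114, 142 and 148 small RNA reads and 5005 and 10790 AGO2 reads (log2 ratio 6.04, or 5.41 without the AGO2 KO library, SE 0.31, edgeR adjusted p = 1.49e-08). miR-328 had 53, 73, 38 and 56 small RNA reads and 6585 and 6125 AGO2 reads (log2 ratio 6.92, SE 0.30, edgeR adjusted p = 8.55e-09). In the opposite direction, 7 miRNAs were in the top 50 of small RNA and outside the top 150 of AGO2 or without a group of class miRNA: miR-21a, miR-103, miR-146b, miR-10a, miR-1961, miR-1839 and miR-26a. Of these, miR-21a, miR-10a and miR-1839 had AGO2 groups of other classes, and with those counted their ranks were 2, 21 and 63. Of the 37 miRNAs listed for AGO2 only, 2 had a mean of at least 1000 reads, and 31 had under 100. The 2, named after their values were seen, were miR-205 with 1370 and 2772 reads and miR-5115 with 1342 and 2396. The most-read miR-5115 group was 36 bases long in both libraries, where the median group of class miRNA had 23. The 116 listed for small RNA only held 47.4% to 52.1% of small RNA reads, most of it miR-21a, and 90 of them had a mean under 100 reads.

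The 10 with the most negative ratios were miR-26a, let-7c, miR-146b, let-7a, miR-24, miR-378a, miR-194, miR-30c, miR-20a and let-7f. miR-26a had 9305, 8452, 10020 and 12288 small RNA reads, and 0 and 12 AGO2 reads in groups (log2 ratio -10.62, SE 0.64, edgeR adjusted p = 3.82e-08; -9.75 without the AGO2 WT library). These 12 reads were of the 3p strand, and no AGO2 group of class miRNA lay on the 5p strand of miR-26a, which holds the seed. By contrast miR-26b, whose 5p strand has the same seed, had 21.1 times its mean small RNA share in AGO2. miR-146b had 49133, 41106, 40404 and 64384 small RNA reads and 103 and 41 AGO2 reads (log2 ratio -9.27, SE 0.48, edgeR adjusted p = 1.49e-08; -10.25 without the AGO2 WT library). Per miR-146b read of either arm, miR-146a had 5.45 to 7.89 reads in small RNA and 613 and 1405 in AGO2. All 103 and 41 AGO2 reads of miR-146b were of the 3p strand, not of the 5p strand with the shared seed. The AGO2 ratios are therefore not ratios of the seed partners, whereas nearly all small RNA reads of miR-146b were 5p.

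miRNAs whose names carry a locus number, because the same mature strand comes from several hairpins in the genome, were mostly low in AGO2. Of 21 tested, 2 were higher and 15 lower (median log2 ratio -3.70), and they held 23.1% of small RNA reads and 2.16% of AGO2 reads. Of the 174 without a number, 77 were higher and 57 lower (median 0.49). With plain shares the counts were 4 higher and 13 lower with a number, and 111 and 27 without. The 2 higher ones were miR-92a, with 1.63% and 1.56% of AGO2 reads against 0.0704% to 0.110% of small RNA reads (log2 ratio 2.40), and miR-128. miR-92a reads lay almost all at the miR-92a-1 hairpin, 39034 of 39394 in WT and 35002 of 35300 in KO. How reads that map to several places were handled is not given in the sources used here, and its part in these differences was not tested. Without the numbered names, the Spearman correlation of the assays was 0.761 over 181 miRNAs.

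Of 19 families with at least 2 tested members, 9 held members called in both directions, 7 had all members called one way, and 3 did neither. With plain shares 12 held both directions and 4 had all members called one way. Counts sum both arms, so AGO2 reads of a member can be of the strand without the family seed. Of the 9 let-7 family members tested, let-7g and miR-98 were higher in AGO2, 6 were lower and let-7i did not pass (median -2.11). With plain shares 4 were called higher and 4 lower. The family held 22.6%, 21.4%, 20.4% and 21.5% of small RNA reads and 5.51% and 6.97% of AGO2 reads. let-7g alone had 3.45% and 4.28% of AGO2 reads against 0.490%, 0.502%, 0.638% and 0.470% of small RNA reads (log2 ratio 1.17, SE 0.20, edgeR adjusted p = 0.000199). Small RNA held 13.2 to 21.8 let-7c reads per let-7g read, whereas AGO2 held 55.5 and 139 let-7g reads per let-7c read. let-7d was lower on the TMM scale (log2 ratio -1.16) and higher with plain shares, so its direction depends on the scaling.

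In the miR-25 family (miR-25, miR-32, miR-92a, miR-92b and miR-363), which shares targets such as BIM, all 5 members were higher in AGO2, with log2 ratios from 2.36 (miR-25) to 7.82 (miR-92b). Together they had 2.20% and 2.30% of AGO2 reads against 0.0959% to 0.150% of small RNA reads. The miR-15/16 family had 3 higher, 1 lower and 1 that did not pass (4 and 1 with plain shares). miR-15a, an inhibitor of BCL2 and cyclins, had 3.62% and 5.40% of AGO2 reads against 0.161%, 0.146%, 0.152% and 0.145% (log2 ratio 3.18, SE 0.18, edgeR adjusted p = 2.69e-08), while miR-16 of the same cluster, whose name is numbered, was lower (log2 ratio -3.50, SE 0.26). Each miR-16 read was matched by 0.649 to 0.924 miR-15a reads in small RNA and by 59.1 and 98.4 in AGO2. The AGO2 reads of miR-16 were of both arms, with 652 and 553 placed on the 5p strand that holds the family seed.

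In the family of miR-130 and miR-301a 3 of 4 were higher and miR-130b lower. All 4 tested members of the miR-17 family were lower (median -3.33), as were all 4 of the miR-181 family (median -3.04), which regulates lymphocyte receptor signalling. With plain shares the calls were 2 of 4 and 3 of 4, all lower. The seeds of both families lie on the 5p strand, but AGO2 reads of miR-181a were all 3p and those of miR-17 were 64.3% and 87.3% 3p. AGO2 reads of miR-20a, miR-93, miR-106b and miR-181b were mostly 5p. In the miR-30 family miR-30b was higher and the other 4 lower, 2 of them called with plain shares.

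Of 14 clusters of neighbouring hairpins with at least 2 tested members, 8 held members called in both directions. In 4 all were called one way, the cluster of miR-221 and miR-222 among them. With plain shares these counts were 9 and 3. Here too the shares over all tested miRNAs were 40.5% higher and 36.9% lower. In the miR-17~92a-1 cluster, a known oncogenic polycistron, miR-19a (log2 ratio 5.48, SE 0.26) and miR-92a were higher in AGO2, and miR-17, miR-18a, miR-19b and miR-20a were lower, at -2.08, -2.87, -3.81 and -6.14. With plain shares 3 of these 4 were called lower. The cluster held 0.656% to 0.816% of small RNA reads and 2.31% and 2.15% of AGO2 reads. In the miR-23b27b24-1 cluster only miR-27b was higher, with miR-23b at -1.54 and miR-24 at -8.72. The direction of miR-23b turned with plain shares. AGO2 held 993 and 900 miR-27b reads per miR-24 read, where small RNA held 0.248 to 0.315. These miR-24 counts are summed over its loci in both clusters. They also rest on different strands, as the AGO2 reads of miR-24 were all 5p and its small RNA reads mostly 3p. The clustered miR-183, miR-96 and miR-182 all 3 did not pass, at log2 ratios of -0.13 to 0.07, and with plain shares all 3 were called higher.

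The arms of the hairpins differed in weight between the assays. Small RNA reads were mostly 5p (84.3%, 82.9%, 84.6% and 82.5%), whereas AGO2 reads were mostly 3p (66.3% and 67.0%), with 20.0% and 30.8% 5p. miR-21a-5p leads the first and miR-27b-3p the second. The AGO2 figures cover groups of class miRNA alone and so leave out miR-21a, which made up 45.7% to 50.6% of small RNA reads. Its main AGO2 groups, of another class, were a 5p group of 193858 reads in WT and a group of 365850 spanning both arms in KO. In WT a further 11.8% of AGO2 reads lay in groups that span both arms, nearly all of it the miR-142 group of 284764 reads at chr11:87570366-87570439 (mm9). In KO the miR-142 arms were listed apart, 111073 reads on the 5p arm at chr11:87570366-87570399 and 114021 on the 3p arm at chr11:87570404-87570429. The 3p share of miR-142 was thus 50.7% in AGO2 KO, against 89.4%, 92.2%, 92.4% and 93.3% in small RNA.

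Hairpin by hairpin, the dominant arm was mostly the same. Arms could be compared for 99 hairpins with at least 100 reads in every library. The dominant arm was the same in every library of both assays for 79 and opposite for 13, and the mean 3p share differed by 5.33 percentage points in the median. For miR-27b the 3p share was 97.6% to 98.2% in small RNA and 100% in both AGO2 libraries after rounding. miR-223 had 65.1% to 72.4% 3p in small RNA, and 100% and 99.8% in AGO2. miR-27a, miR-22, miR-221, miR-222 and miR-101a were likewise 3p in both assays, and let-7g, miR-15a and miR-146a were 5p. Arm shares are given as a description and were not tested; a two-sided exact permutation test of 2 against 4 libraries cannot go below p = 0.133.

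Of the 13 opposite hairpins, 9 went from 5p in small RNA to 3p in AGO2 (miR-125b, miR-17, miR-181a, miR-18a, miR-338, miR-340, miR-362, miR-423, miR-7a), and 4 from 3p to 5p (miR-24, miR-28a, miR-339, miR-501). miR-423 had the most AGO2 reads among them, with a 3p share of 40.9%, 39.3%, 40.9% and 44.8% in small RNA and 85.9% (exact 95% interval 85.4 to 86.4) and 79.3% (78.7 to 79.9) in AGO2. miR-362 had 0.602%, 0.685%, 1.29% and 0.824% against 98.1% and 100%. miR-338 had 18.3%, 17.5%, 22.7% and 12.9% against 99.5% and 98.8%. miR-339 went the other way, from 67.8%, 65.9%, 61.7% and 63.7% to 3.49% and 6.40%. For miR-7a in AGO2 WT the interval of 46.9 to 61.9 includes an even split.

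For 4 of the 13 (miR-125b, miR-181a, miR-24 and miR-7a) RefSeq lists the arm that dominates small RNA at several loci, and for the other 9 at 1 locus. Among the 79 with the same arm it was 5, with 6 that had no RefSeq entry. Of 45 miRNAs in the top 50 of small RNA and in both assays, 7 had no AGO2 group on the arm that held most small RNA reads, summed over the libraries: miR-24-3p, miR-146b-5p, miR-181a-5p, miR-125b-5p, miR-26a-5p, miR-30c-5p and miR-29b-3p. All but miR-146b-5p are listed at several loci. Others of the 45 at several loci did have an AGO2 group on that arm: let-7c-5p, let-7f-5p, miR-16-5p, miR-181b-5p and miR-92a-3p. A part of the locus number in this was not tested. For miR-24 small RNA held 295539, 333235, 308141 and 439818 reads of the 3p strand, and AGO2 held none of it but 798 and 769 reads of the 5p strand. miR-181a kept 3704 and 2143 AGO2 reads, all of the 3p strand, against 12611 to 20660 small RNA reads of the 5p strand.

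**Figure D4:**
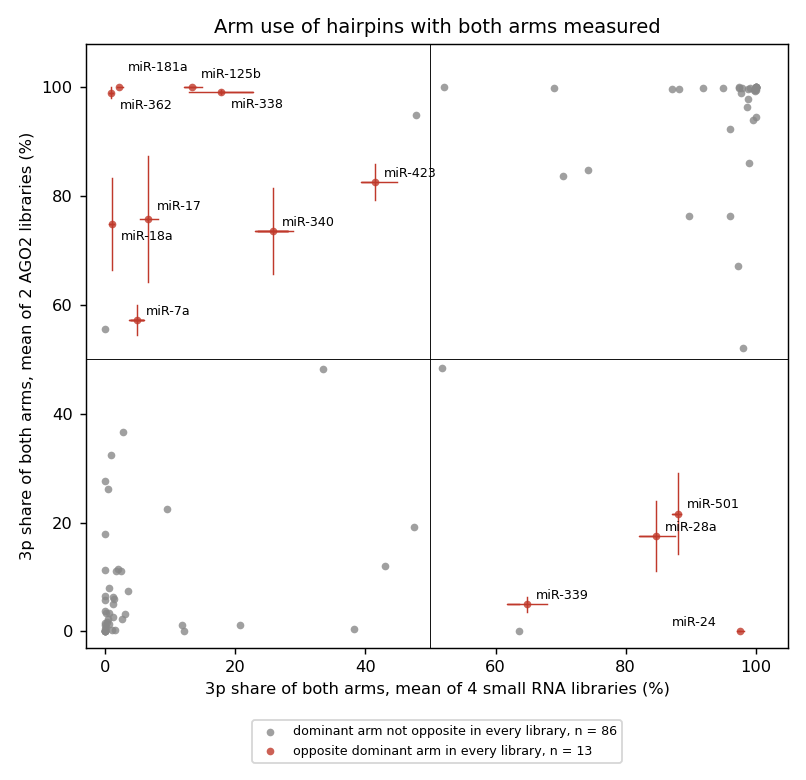
Mean 3p share of both arms in the 2 AGO2 libraries (vertical) against the 4 small RNA libraries (horizontal), in percent, 1 point per hairpin (99 in all), with lines spanning the single libraries for the 13 hairpins in red. The red points lie in the upper left (5p in small RNA, 3p in AGO2, 9 hairpins) and lower right (4 hairpins).

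Per read, conversion events were fewer on miRNA groups than on other groups, whereas the share of groups with a conversion was higher. Groups of class miRNA carried 12.4 conversion events per 100 reads in WT and 9.39 in KO, against 55.9 and 41.6 in all other groups, and 62.1% and 56.5% of them had at least 1 conversion location, against 58.9% and 39.9% of other groups. Class miRNA was 0.492% of groups but 38.3% of reads in WT, and 0.398% and 35.1% in KO. The share of groups with a conversion was not adjusted for this difference in reads per group. Each comparison is within 1 library and was not tested. The miRNAs differed widely, and of those compared below miR-5115 had the highest rate in both libraries. Among the 77 with at least 1000 reads in both AGO2 libraries the median was 7.21 events per 100 reads in WT and 4.31 in KO, with a range of 0.0608 to 96.9 in WT and 0 to 91.5 in KO. The order was similar in the 2 libraries (Spearman correlation 0.930 over 77 miRNAs), and 59 of 77 were higher in WT, each from 1 library and so without a test.

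miR-27b, with the most reads, was among the least converted at 0.532 and 0.459 events per 100 reads, and miR-146a had 0.740 and 0.628. miR-22 had 41.9 and 34.1, miR-221 had 40.6 and 26.5, miR-222 had 41.3 and 28.4, and miR-101a had 46.4 and 45.6. Reads and conversion therefore ranked the miRNAs in another order. By share of conversion events, summed over the 2 libraries, miR-22 came first and miR-27b was 11th. In WT alone miR-142 had the most events, 46371 against 43468 for miR-22. In KO, where the miR-142 arms were apart, the 3p group had 22.4 events per 100 reads and the 5p group 0.831. The number of T in the sequence of the most-read group did not follow the rate (Spearman correlation 0.06 in WT and 0.09 in KO over the 77 miRNAs).

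**Figure D5:**
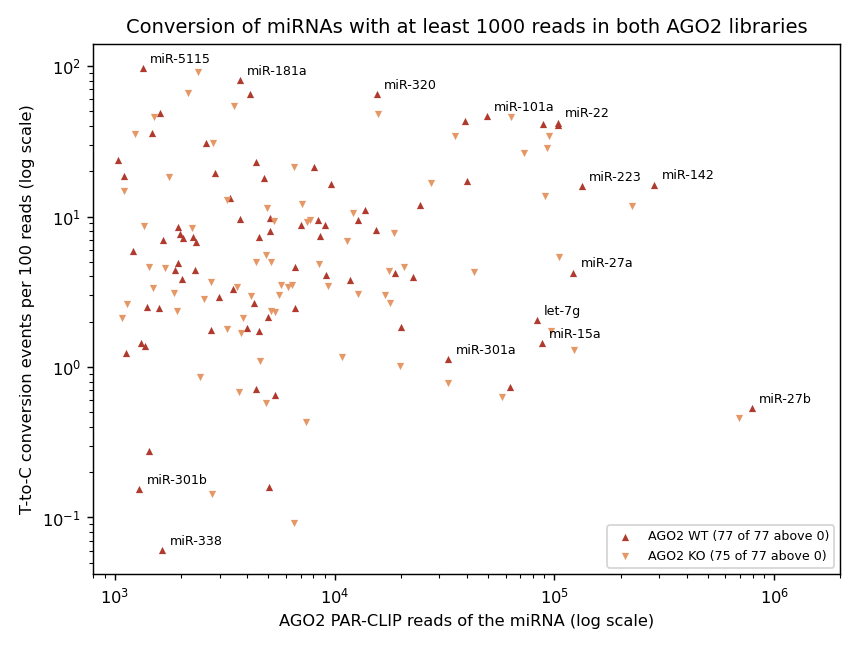
T-to-C conversion events per 100 reads (vertical, log axis) against AGO2 PAR-CLIP reads (horizontal, log axis) for the 77 miRNAs with at least 1000 reads in both libraries; upward triangles are WT, downward ones KO, and values of 0 (2 in KO) are not drawn. miR-27b lies at the lower right with 0.532 events per 100 reads in WT and 0.459 in KO, and miR-22, miR-101a and miR-320 lie above 30.

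Most AGO2 groups began near the first base of a mature strand. Of the groups placed on a RefSeq strand, 225 of 270 in WT (83.3%) and 234 of 278 in KO (84.2%) began within 1 base of it. At the other end 45.6% and 39.2% reached beyond the mature strand, and 70.1% and 62.5% of the groups with at least 1000 reads. The main miR-27b group covered chr13:63402065-63402089 in WT with 792568 reads and chr13:63402067-63402089 in KO with 691880 reads (mm9, plus strand). The main miR-223 group lay at chrX:93438221-93438247 with 133142 reads in WT and at chrX:93438222-93438247 with 90048 in KO.

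miR-21a shows what the annotation class leaves out. A group with its whole 5p strand, 193858 reads in WT at chr11:86397618-86397644 (mm9, minus strand), is annotated to the 3′ UTR of Vmp1, the gene that ends beside the miR-21a hairpin. In KO a group of 365850 reads at chr11:86397583-86397644 spans both arms. With all groups counted that share at least 18 bases with a mature strand (39 further groups in WT and 30 in KO), miR-21a had 7.44% of AGO2 miRNA reads in WT (exact 95% interval 7.41 to 7.48) and 13.7% in KO (13.7 to 13.8), rank 3 in WT (behind miR-27b and miR-142) and rank 2 in KO. Against 45.7% to 50.6% of small RNA reads it was still lower in AGO2, by 4.46-fold in mean share (log2 ratio -3.61, SE 0.29, edgeR adjusted p = 5.27e-07, in a fit chosen after the data were seen). In that fit miR-10a, whose AGO2 groups are annotated to the 5′ UTR of Hoxb4, did not pass (log2 ratio -0.36, SE 0.24, edgeR adjusted p = 0.183). Its mean share was 2.10 times higher in AGO2 (0.647% against 0.308%), so its sign depends on the scaling.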

How the data were processed

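Small RNA values are read counts per mature miRNA and PAR-CLIP values are read counts per group, both as the authors deposited them, per the file headers; groups are listed from 5 reads. The submitters' processing notes list CASAVA 1.8.2, Bowtie 0.12.7 and the mm9 build, with no role given. Which program formed the groups, and how it treated reads that map to several loci, is not given in the sources used here. The 4 columns of fractions in the small RNA files were not used, and 1 of them, in the KO 4 file, is headed KO 2. Groups of class miRNA were matched by their transcript name (the hairpin), because the gene name field reads piRNA for all of them. Counts of both arms and all loci were summed per miRNA, since 1 group can span both arms. Shares are percent of a library's miRNA reads. edgeR 4.0.16 (R 4.3.3; TMM, filterByExpr, quasi-likelihood, assay as the only term, Benjamini-Hochberg adjustment, threshold 0.05) compared the assays. On simulated data for the same miRNAs it called 55% of those changed by a log2 of 1, 100% at 2 and 3, and 2.96% of unchanged ones. In that simulation 135 of 195 miRNAs were unchanged and the changes were balanced in direction. In the real data 77.4% were called and some ratios were larger, so these rates do not measure the error there. Alternatives were DESeq2 1.42.0, other scalings, filters and group choices, and leaving out each library. Python 3.11.15 was used for shares, arms and conversions. Intervals are exact Clopper-Pearson at 95% and cover counting error only. With 2262229 or more miRNA reads a library, 3 reads correspond to at most 0.000133% of them. RefSeq sequences matched 368 of 485 mature names.

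Named miRNAs are the 3 given as markers, the 15 of highest share in each assay, the 10 of largest ratio each way with at least 0.01% in either assay, those in the top 50 of one assay and outside the top 150 of the other, examples of the listed families and clusters, and hairpins whose dominant arm differs. The members and lists were chosen with earlier results of these data known.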

Additional observations from a re-analysis of the deposited data

Results flagged for a closer look

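For 17 miRNAs all AGO2 reads lay in groups that the deposited tables give another class than miRNA, outside the main comparison. The 6 with a mean of at least 1000 such reads follow, and the other 11 had 10 to 791 in a library. miR-21a had 195933 such reads in WT and 365850 in KO, annotated to the 3′ UTR of Vmp1. These carried 4.99 conversion events per 100 reads in the WT 5p group and 2.76 in the KO group. miR-10a had 14985 and 19277, annotated to the 5′ UTR of Hoxb4. miR-324 had 5357 and 8317, annotated to the 3′ UTR of Dvl2. In groups of class snoRNA, miR-1839 had 1731 and 3109, miR-1843a had 1061 and 1146, and miR-1843b had 925 and 1155. All 17 had 0 reads in groups of class miRNA in both libraries.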

How the results depend on the processing

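Of 39 named miRNAs, none turned in direction under the alternatives that could be fitted; miR-26a and miR-194 were not listed without the AGO2 KO library, nor, with miR-30c, among converted groups. Of the listed family, cluster and marker members outside these 39, let-7d, miR-23b, miR-34a, miR-143, miR-145a, miR-155, miR-183 and miR-186 turned with plain shares. Without the AGO2 KO library miR-5109 had a log2 ratio of 4.92 (5.88 with it), and without the AGO2 WT library miR-194 had -6.89 (-7.76 with it). The count of calls, 151, lay between 133 and 150 when a library was left out (68 to 81 higher, 63 to 71 lower). It was 142 with DESeq2 (66 higher, 76 lower), 149 with no filter and 151 with genotype as a covariate. With plain shares 40 were lower, miR-30e lost its call (log2 ratio -0.45, edgeR adjusted p = 0.172) and miR-125a gained one (1.71; 0.75 over matched totals). With only converted groups, 50 were higher and 104 called in all, from fewer groups. The rank correlation of 0.714 was 0.540 with absent miRNAs set to 0, 0.619 with converted groups only, 0.733 with groups of any class, and 0.707 to 0.716 without 1 library. With at least 1000 reads, 53 hairpins were left and 6 had opposite arms; without 1 library the counts were 99 to 102 and 13 to 15. No paired analysis was possible because the small RNA and AGO2 groups share fewer than 2 replicate numbers. Each AGO2 genotype is 1 library, and AGO2 depth is limited to groups of at least 5 reads. With 1 AGO2 library left out, the other is assumed to vary like the small RNA libraries. Matched totals with plain shares and groups of any class were chosen after seeing the data.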
